A study of Mus musculus with 27 samples.

Results

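The genes described here are 40 genes of the mouse cell cycle and of DNA replication, taken by name and read in the 9 groups of sorted cells, to ask whether any brain group still carried the transcripts of dividing cells after the microglial niche had been refilled. Of the 40, 7 act at the G1/S transition, 11 in DNA replication, 9 are cyclins and kinases of S phase, G2 and mitosis, and 13 act in mitosis and chromosome segregation. Each gene was read from the array row annotated with its symbol alone, and from the row of highest mean where a gene had several, as Rrm2 did with 2. This gave values for 38 members among the 21666 genes with such a row. The signals of Ccne2, whose row also carries Ints8, and of Ccnb1 are not analysed here, and Ccnb1 enters the promoter counts alone. All 38 measured members had signal and entered the test.

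The samples were 27 Affymetrix Mouse Gene 2.1 ST arrays of RNA from pools of 2 to 5 C57BL/6 mice. F4/80low and F4/80hi cells (CD11b+CX3CR1hi) were sorted from the brains of Cx3cr1CreER/+R26DTA/+ mice after tamoxifen (TAM), which switches on diphtheria toxin A in cells that express Cx3cr1. There were 3 F4/80low arrays for 4 weeks and 3 for 12 weeks, and 2 F4/80hi arrays for 4 weeks and 3 for 12 weeks, and the labels name the F4/80low cells as proliferating. Both kinds of cell were taken from the same brains, so that their arrays are not fully independent, and the labels do not tell which arrays share a pool. DTR microglia (2 arrays) came from Cx3cr1CreER/+R26DTR/+ mice, which carry the toxin's receptor in place of the toxin, were given TAM and 3 weeks later diphtheria toxin (DT), and were sorted as CD11b+CX3CR1hi cells, with no split into F4/80low and F4/80hi cells, 2 weeks after DT. The other populations were Ly6Chi monocytes from bone marrow (5 arrays), red pulp macrophages of the spleen (2) and intestinal macrophages (2), all from naive mice. The monocytes were isolated with a magnetic bead kit and not by a cell sorter. Red pulp macrophages were taken on magnetic columns or sorted further, without a label saying which. Naive microglia (5 arrays) came from untouched mice or from Cx3cr1CreER/+ mice given TAM. Of the 5 arrays each of naive microglia and of monocytes, 3 are biological and 2 technical without a label saying which, which can make p-values against these groups too small.

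A cell that leaves rest makes D-type cyclins, which with their kinases inactivate the retinoblastoma protein and free E2F factors to switch on the genes of DNA replication. Genes of G2 and mitosis follow later and are silenced in resting cells by complexes that sit on short promoter elements. Adult microglia divide rarely, but those that survive depletion divide until the brain is filled again, whereas bone marrow monocytes stand close to precursors that divide all the time. The transcripts of late cell cycle genes therefore serve as a mark of dividing cells, although an array measures transcripts and not division. In pools of sorted cells, fewer dividing cells and less RNA per dividing cell cannot be told apart.

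Short sequence elements in the members' promoters were counted by role. RefSeq windows of 250 bases before to 50 bases after a gene's start (GRCm38.p6) were at hand for 32 of the 40 members, 36 windows in all, and were searched on both strands for CCAAT, the letters of the NF-Y site, for TTTGAA, the letters of the cell cycle homology element, and for the E2F letters TTTGGCGC or TTTCGCGC. The letters TTTGAA stood in 71.4% of the 7 windows of S/G2/M cyclins and kinases and in 75% of the 12 windows of mitosis genes, against 17.9% of all 32851 windows, and in 1 of 11 windows of replication genes and none of 6 of G1/S genes. CCAAT stood in 75% of the 36 members' windows and in 37.4% of all windows. Both together stood in 15 of the members' windows (41.7%) and in 6.95% of all. The E2F letters stood in 4 of 11 windows of replication genes (Mcm3, Mcm5, Mcm6 and Mcm7) and in that of Cdk1, against 0.813% of all windows. Shown are the windows of the 3 late genes the results turn on, Mki67 (chr7:135716330-135716629, minus strand), Cdk1 (chr10:69352863-69353162, minus strand) and Ccnb2 (chr9:70421505-70421804, minus strand), with CCAAT and TTTGAA of either strand in capitals, and that of Mcm5 (chr8:75109259-75109558, plus strand) with the E2F letters in capitals. In Mcm5 the 2 E2F matches, one on each strand, overlap, their first bases standing at -153 and -149 from the start site.
Mki67: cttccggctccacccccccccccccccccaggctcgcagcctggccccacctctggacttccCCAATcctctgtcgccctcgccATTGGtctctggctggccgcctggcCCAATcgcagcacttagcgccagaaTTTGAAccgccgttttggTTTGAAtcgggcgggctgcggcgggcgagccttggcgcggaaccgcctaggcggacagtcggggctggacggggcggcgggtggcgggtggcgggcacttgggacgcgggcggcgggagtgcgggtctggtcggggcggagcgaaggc
Cdk1: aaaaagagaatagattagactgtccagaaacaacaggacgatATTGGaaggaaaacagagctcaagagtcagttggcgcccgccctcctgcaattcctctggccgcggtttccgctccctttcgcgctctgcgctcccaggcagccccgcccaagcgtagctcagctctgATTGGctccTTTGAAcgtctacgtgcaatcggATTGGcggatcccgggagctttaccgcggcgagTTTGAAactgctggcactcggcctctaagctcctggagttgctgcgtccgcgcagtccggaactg
Ccnb2: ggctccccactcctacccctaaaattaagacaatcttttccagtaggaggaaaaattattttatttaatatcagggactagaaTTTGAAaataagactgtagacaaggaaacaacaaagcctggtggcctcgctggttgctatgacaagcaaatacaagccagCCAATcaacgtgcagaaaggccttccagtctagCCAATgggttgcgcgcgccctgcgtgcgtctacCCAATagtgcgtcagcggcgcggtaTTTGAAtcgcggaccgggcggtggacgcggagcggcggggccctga
Mcm5: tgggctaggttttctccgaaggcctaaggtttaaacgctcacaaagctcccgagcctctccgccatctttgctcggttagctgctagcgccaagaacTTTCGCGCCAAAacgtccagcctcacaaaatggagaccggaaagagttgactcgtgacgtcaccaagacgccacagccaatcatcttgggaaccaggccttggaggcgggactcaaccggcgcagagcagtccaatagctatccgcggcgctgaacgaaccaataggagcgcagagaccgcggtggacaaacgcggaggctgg
Mki67, Cdk1 and Ccnb2 each hold CCAAT 3 times and TTTGAA 2 times in these windows, while the printed window of the helicase gene Mcm5 holds no TTTGAA. A match describes the letters and does not show that a factor binds there.

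Some features of the arrays stand beside every result. Array medians lay between 5.06 and 5.23 on the log2 scale, so that a gene with a signal near 5 has little room to fall, and the mean r between arrays within a group was 0.969 to 0.986. The 12-week and DTR arrays belong to batch 1, the 4-week arrays and both tissue macrophages to batch 2, and naive microglia and monocytes to both, so that groups at 12 and 4 weeks were compared across batches through the naive and monocyte arrays. Differences come from limma, fitted once over the 27 arrays with batch as a term. In the deposited values the difference between batches was the same in naive microglia and in monocytes. With all arrays in the fit, a group held in 1 batch is therefore in effect set against the naive arrays of that batch alone. These are naive arrays 1 and 2 for the 12-week and DTR arrays. For the 4-week arrays and tissue macrophages they are naive arrays 3, 4 and 5. In fits without naive array 3 this no longer holds. All 5 naive values are printed, and the fitted difference can depart from the difference of the group means. A gene was called at a Benjamini-Hochberg adjusted p under 0.05 over all 32245 transcripts and a change of more than 2-fold. Naive array 3 stood apart: it was the highest of the 5 naive arrays in 25 of 38 members and in 29.6% of all transcripts. Results of the brain groups against naive microglia are given without it where a call changed, a choice made after seeing the data. Leaving out an array that is high in most members tends to raise the members' differences from naive microglia. A call gained this way is no independent support. In comparisons within batch 1, naive array 3 acts through the batch term and through the estimate of spread shared by all arrays. Leaving it out can therefore lower an adjusted p with little change in the difference. The comparisons with naive microglia share naive arrays and are not independent of each other. Both 4-week groups carried transcripts of neutrophils: the mean of 11 neutrophil genes lay 0.82 to 2.44 above naive microglia on the log2 scale in F4/80low arrays and 1.08 to 2.51 in F4/80hi arrays, against -0.08 to 0.11 in DTR arrays, -0.28 to 0.19 in the F4/80hi and -0.09 to 0.01 in the F4/80low arrays at 12 weeks, with Ltf, Ngp, Camp, S100a8 and S100a9 called higher than in naive microglia in both 4-week groups. The mean of 8 measured genes of Ly6Chi monocytes, of a list of 9, also stood high in part of the 4-week arrays: it lay 1.86, 2.39 and 0.37 above naive microglia in F4/80low arrays 1, 2 and 3, and 2.25 and 0.37 in F4/80hi arrays 1 and 2, against 0.08 to 0.46 in DTR arrays, 0.16 to 0.42 in F4/80hi and -0.14 to 0.12 in F4/80low arrays at 12 weeks, and 6.33 to 6.50 in monocytes. Of these 8 genes, Ly6c2, Fn1 and Hp were called higher in 4-week F4/80low cells than in naive microglia, F13a1 in F4/80hi cells at both times, and none in F4/80low cells at 12 weeks or in DTR microglia. The part of these neutrophil and monocyte transcripts in the members' levels was not tested. Of the same 11 neutrophil genes, Elane, Mpo, Prtn3 and Ctsg did not exceed 5.48 in any 4-week array, unlike Ltf, Ngp, Camp, S100a8 and S100a9. Whether dividing neutrophil precursors were among the sorted cells was not tested. The mean of 7 microglia markers lay -0.50 to 0.18 from naive microglia in F4/80low, DTR and 4-week F4/80hi arrays, 1.69 to 2.00 below in 12-week F4/80hi arrays, and far lower in monocytes, where their mean was 5.79 to 6.08 below.

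Set against naive microglia, F4/80low cells at 4 weeks had higher levels of Ccnd2 and Cdk1, and none of the 38 members was lower. This was 5.26% of members higher, against 0.735% of all transcripts higher and 0.267% lower. The members' median difference was 0.22 on the log2 scale and that of all transcripts -0.04. Of the 21 measured S/G2/M and mitosis members, called late members below, 20 lay above zero with a median of 0.34, and 1 of them, Cdk1, was called, whereas 10 of 11 replication members lay below zero (median -0.17), none of them called.

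Ccnd2, cyclin D2, which with CDK4 and CDK6 drives cells out of G1, had log2 signals of 6.95, 6.84 and 6.61 in F4/80low cells at 4 weeks, against 5.13, 5.50, 5.22, 5.48 and 4.95 in naive microglia. The groups did not overlap, and the fitted difference was 1.58 (SE 0.24, 3.00-fold, adjusted p = 2.45e-04). It lay between 1.49 and 1.68 with each array left out in turn, and was called each time.

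Cdk1, the kinase that drives entry into mitosis, had 7.26, 6.81 and 7.37 in F4/80low cells at 4 weeks, against 5.91, 6.52, 6.79, 5.84 and 5.72 in naive microglia. The lowest F4/80low array stood just above naive array 3, and the difference of 1.03 (SE 0.22, 2.04-fold, adjusted p = 0.0110) stood close to the 2-fold limit. The call was lost with no batch term (0.99) and in 5 of 8 fits with an array left out (naive 1, 4 or 5, or F4/80low 1 or 3), where the difference was 0.89 to 0.98. It was also lost when brain arrays (adjusted p = 0.0737) or arrays of batch 2 (adjusted p = 0.168) alone entered the fit. In F4/80low array 3, which had the lowest neutrophil and monocyte marker means of the 3, Cdk1 was 7.37. With that array alone standing for the group, a choice made after seeing the data, the difference was 1.25. This rests on 1 array, and the part of neutrophil and monocyte transcripts in the Cdk1 values was not tested.

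Mki67, the marker of cycling cells Ki-67, had 7.81, 8.62 and 8.0 in F4/80low cells at 4 weeks, against 6.76, 6.59, 7.86, 6.15 and 7.16 in naive microglia. All 3 arrays exceeded 4 of the 5 naive arrays, and the difference of 1.09 (SE 0.31) had an adjusted p of 0.0882. Without naive array 3 it was 1.38 with an adjusted p of 0.0149, and 3 members were called higher, Ccnd2, Cdk1 and Mki67, against 0.67% of all transcripts higher in that fit.

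Further late genes had positive differences without passing the test. Cdc20, an activator of the ubiquitin ligase that ends mitosis, had 6.40, 6.89 and 6.82 in F4/80low cells at 4 weeks and 5.85 to 6.33 in naive microglia, without overlap, with a difference of 0.58 (SE 0.18, adjusted p = 0.128). Ccnb2, cyclin B2, had 6.02, 7.10 and 6.67 against 5.63 to 6.61, with overlap, and differed by 0.63 (SE 0.28, adjusted p = 0.406). F4/80low array 1 was the lowest of the 3 in both, and the mean over the mitosis members was 0.15 above naive microglia in it and 0.66 and 0.42 in the other 2 arrays. In the same order of arrays the monocyte genes lay 1.86, 2.39 and 0.37 above naive microglia and the neutrophil genes 2.44, 2.37 and 0.82, and their part in these differences was not tested.

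Among replication genes the largest differences pointed down with all arrays in the fit. Mcm4, Mcm5 and Mcm2, subunits of the replicative helicase, differed from naive microglia by -0.59 (SE 0.23), -0.50 (SE 0.26) and -0.45 (SE 0.19) in F4/80low cells at 4 weeks, with adjusted p of 0.303, 0.529 and 0.347. The values of Mcm4 were 6.21, 6.66 and 7.50, against 7.22, 7.14, 7.73, 7.27 and 7.12 in naive microglia. The spread between the 3 arrays of F4/80low cells was wider than the difference. Without naive array 3, Mcm4, Mcm5 and Mcm2 differed by -0.46, -0.24 and -0.35. Mcm3 then differed by 0.46, upward, and none of these was called.

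**Figure D1:**
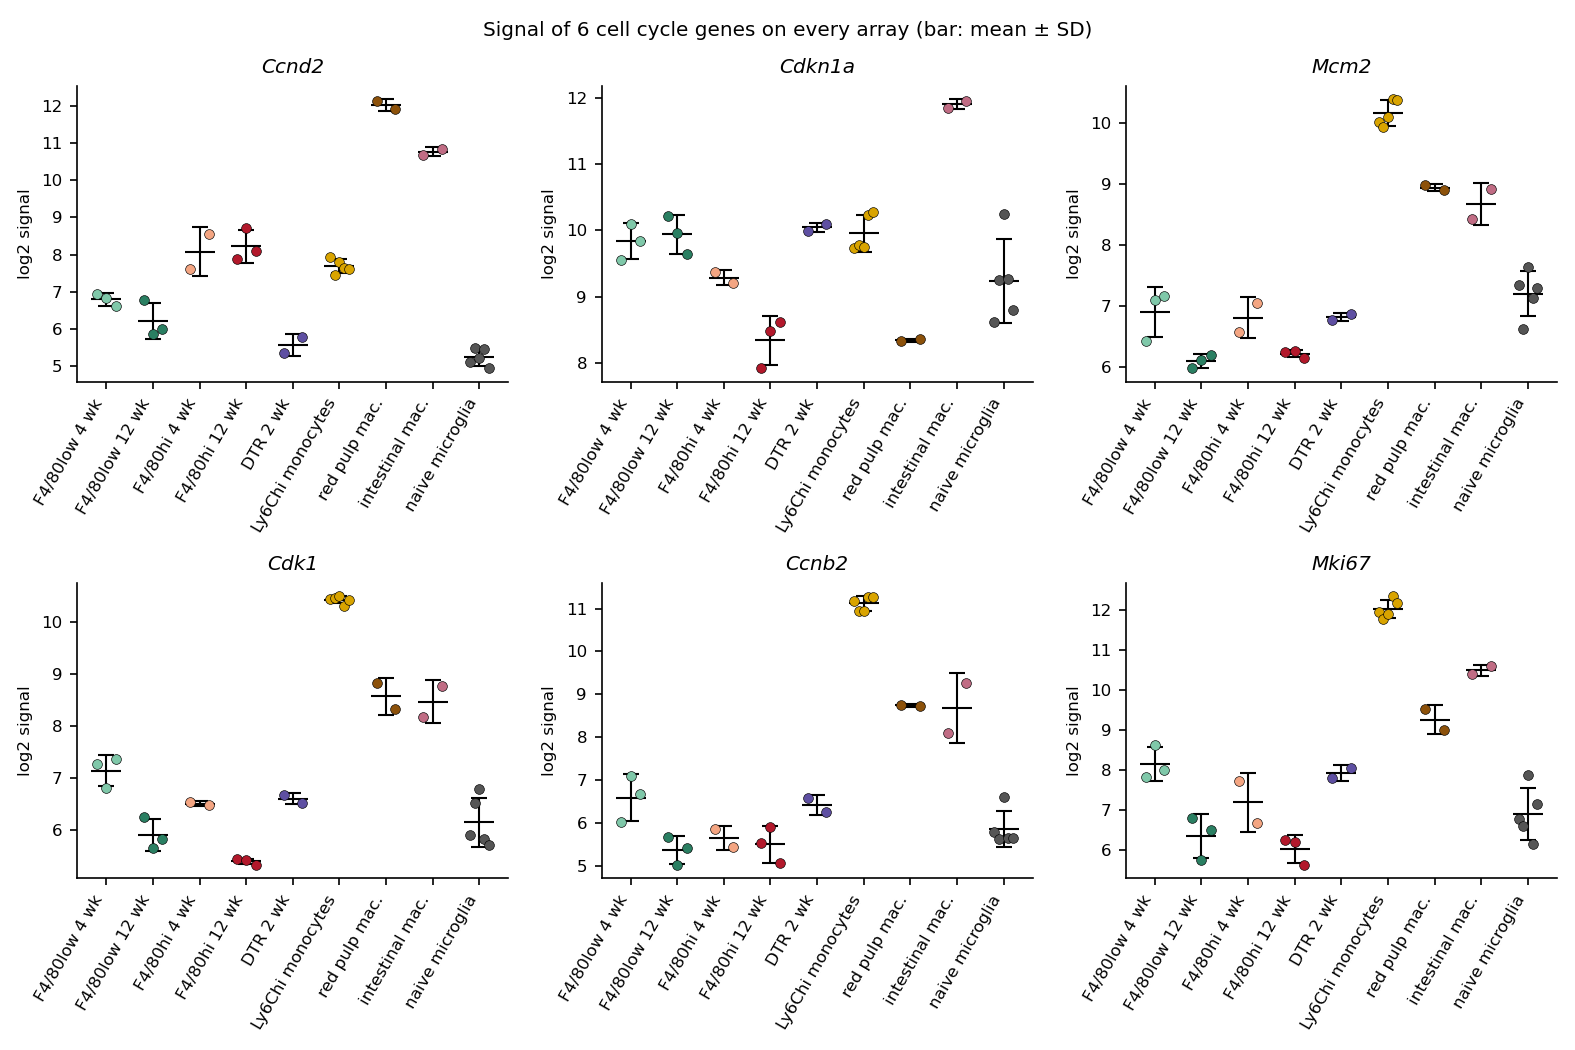
Log2 signal (vertical axis) of 6 members on every array of the 9 groups (points), with the mean and SD of each group (bars). Ccnd2 was higher in every F4/80hi array than in every naive array, Mki67 and Cdk1 were higher in F4/80low cells at 4 weeks than at 12 weeks on all 3 arrays, and Mki67, Cdk1, Ccnb2 and Mcm2 were highest in monocytes.

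At 12 weeks none of the 38 members was called in F4/80low cells against naive microglia, where 0.0527% of all transcripts were higher and 0.0620% lower. At an unadjusted p under 0.05, 3 members were higher and 2 lower, 7.89% and 5.26% of members, beside 2.38% and 3.67% of all transcripts. The members' median was -0.08 and that of all transcripts -0.03. Of the 21 S/G2/M and mitosis members, 6 lay above zero, and for all 21 the upper limit of the 95% interval lay under a 2-fold rise, the highest being 0.81 for Plk1, the polo-like kinase of mitosis. Mki67 had 6.80, 5.74 and 6.50 in F4/80low cells at 12 weeks, all inside the range of the naive arrays (6.15 to 7.86) apart from the second, which lay under it. The difference was -0.33 (SE 0.33, adjusted p = 0.995). Cdk1 had 6.25, 5.65 and 5.82, against 5.72 to 6.79 in naive microglia, and differed by -0.30 (SE 0.24, adjusted p = 0.978).

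The largest differences at 12 weeks were in 2 other roles. Mcm2 had 5.99, 6.13 and 6.20 in F4/80low cells, below all naive arrays (6.62 to 7.64), with a difference of -0.88 (SE 0.20, adjusted p = 0.0823). Cdkn1a, the CDK inhibitor p21 that p53 induces, had 10.22, 9.96 and 9.64 in F4/80low cells at 12 weeks, against 8.62, 9.25, 10.24, 9.26 and 8.81 in naive microglia. All but naive array 3 lay below these 3 arrays, and the difference of 1.00 (SE 0.26) had an adjusted p of 0.182. Without naive array 3 it was 1.11 with an adjusted p of 0.0175 and was the single member called, against 0.0589% of all transcripts higher and 0.062% lower. Ccnd2 differed by 0.91 (SE 0.25, adjusted p = 0.254).

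Set directly against each other across batches, F4/80low cells at 12 weeks had no member called against 4 weeks, where 0.0217% of all transcripts were higher and 0.161% lower, and 6 members (15.8%) were lower and none higher at an unadjusted p under 0.05, beside 5.0% of all transcripts lower and 5.03% higher. The members' median was -0.30, that of all transcripts 0.01, and 19 of the 21 late members lay below zero. Cdk1 differed by -1.33 (SE 0.30, adjusted p = 0.0656) and Mki67 by -1.42 (SE 0.42, adjusted p = 0.207). The 3 arrays of each time point did not overlap in either gene. With no batch term, Cdk1, Ccnb2 and Mki67 were called lower at 12 weeks. The deposited values still differ between batches: Mki67 in monocytes had 11.96, 11.78 and 11.90 in batch 1 and 12.35 and 12.17 in batch 2. A fit with no batch term leaves such shifts in the change between time points. The share of all transcripts called in it was not counted. In the fit with the batch term the neutrophil genes Ngp, Camp, S100a8 and S100a9 were called lower at 12 weeks. All 8 monocyte genes lay below zero, with a median of -1.74, and none was called. The part of either in these differences was not tested.

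DTR microglia, 2 weeks after DT, had no member called against naive microglia, where 0.633% of all transcripts were higher and 0.121% lower, while 13 members (34.2%) were higher and none lower at an unadjusted p under 0.05, beside 5.38% of all transcripts higher and 3.07% lower. All 21 S/G2/M and mitosis members lay above zero, with a median of 0.44, and for 9 of them the 95% interval of the gene alone stood above zero. The median over all 38 members was 0.34 and that over all transcripts 0.01. The fitted differences rest on the 2 DTR arrays and naive arrays 1 and 2. The upper limit of the interval lay under a 2-fold rise in 10 of the 21 late members.

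Mki67 had 7.79 and 8.06 in DTR microglia, against 6.76, 6.59, 7.86, 6.15 and 7.16 in naive microglia. Naive array 3 lay between the DTR arrays and the other 4 lay below them, and the difference was 1.25 (SE 0.37, adjusted p = 0.150). Aurkb, the Aurora kinase of the chromosomal passenger complex, had 7.32 and 6.82 in DTR microglia and 5.89, 6.04, 7.35, 5.95 and 6.08 in naive microglia. It too exceeded all naive arrays but the third, with a difference of 1.10 (SE 0.30, adjusted p = 0.0840). Without that array both were called, at 1.36 (adjusted p = 0.0475) for Mki67 and 1.22 (adjusted p = 0.00389) for Aurkb, and with them Cdkn1a, at 1.22 (adjusted p = 0.00449), against 0.648% of all transcripts higher and 0.14% lower in that fit.

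Cdkn1a had 9.99 and 10.10 in DTR microglia and 8.62 to 10.24 in naive microglia (difference 1.11, SE 0.29, adjusted p = 0.0623). On both DTR arrays the mitosis members Cdca8, Cdc20, Cenpa, Cenpe, Kif11, Kif23 and Tpx2 exceeded all naive arrays. So did the checkpoint kinase gene Bub1, E2f1 and Tyms, and none of these genes was called. How many of all transcripts did the same was not counted, so this list cannot be read as particular to the members. Cenpe, a kinetochore motor, had 6.11 on both DTR arrays and 5.11 to 5.56 in naive microglia (difference 0.76, SE 0.22, adjusted p = 0.125), and Kif23, a motor of cytokinesis, had 6.23 and 6.47 against 4.86 to 5.98 (difference 0.91, SE 0.32, adjusted p = 0.298). In replication genes 7 of 11 lay above zero with a median of 0.04, and in G1/S genes Ccnd2 had 5.37 and 5.79, close to the naive arrays.

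Against F4/80low cells at 12 weeks, with which they share batch 1, DTR microglia had 1 member called, Mki67, which is 2.63% of members against 0.440% of all transcripts higher and 0.0186% lower. Its values were 7.79 and 8.06 in DTR microglia, against 6.80, 5.74 and 6.50 in F4/80low cells, and the difference was 1.58 (SE 0.37, 2.99-fold, adjusted p = 0.0482). The groups lay apart, but the call was lost when either DTR array or F4/80low array 2 or 3 was left out (1.28 to 1.71) and under other scalings, and it stood at the limit. All 21 late members lay above zero, with a median of 0.50, and 33 of all 38 did, with a median of 0.47 beside 0.04 for all transcripts. Ccnb2 had 6.59 and 6.26 in DTR microglia and 5.68, 5.03 and 5.42 in F4/80low cells (difference 1.05, SE 0.33, adjusted p = 0.262). The 2 groups differ in sort gate, depletion allele and time since depletion, which cannot be told apart.

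**Figure D2:**
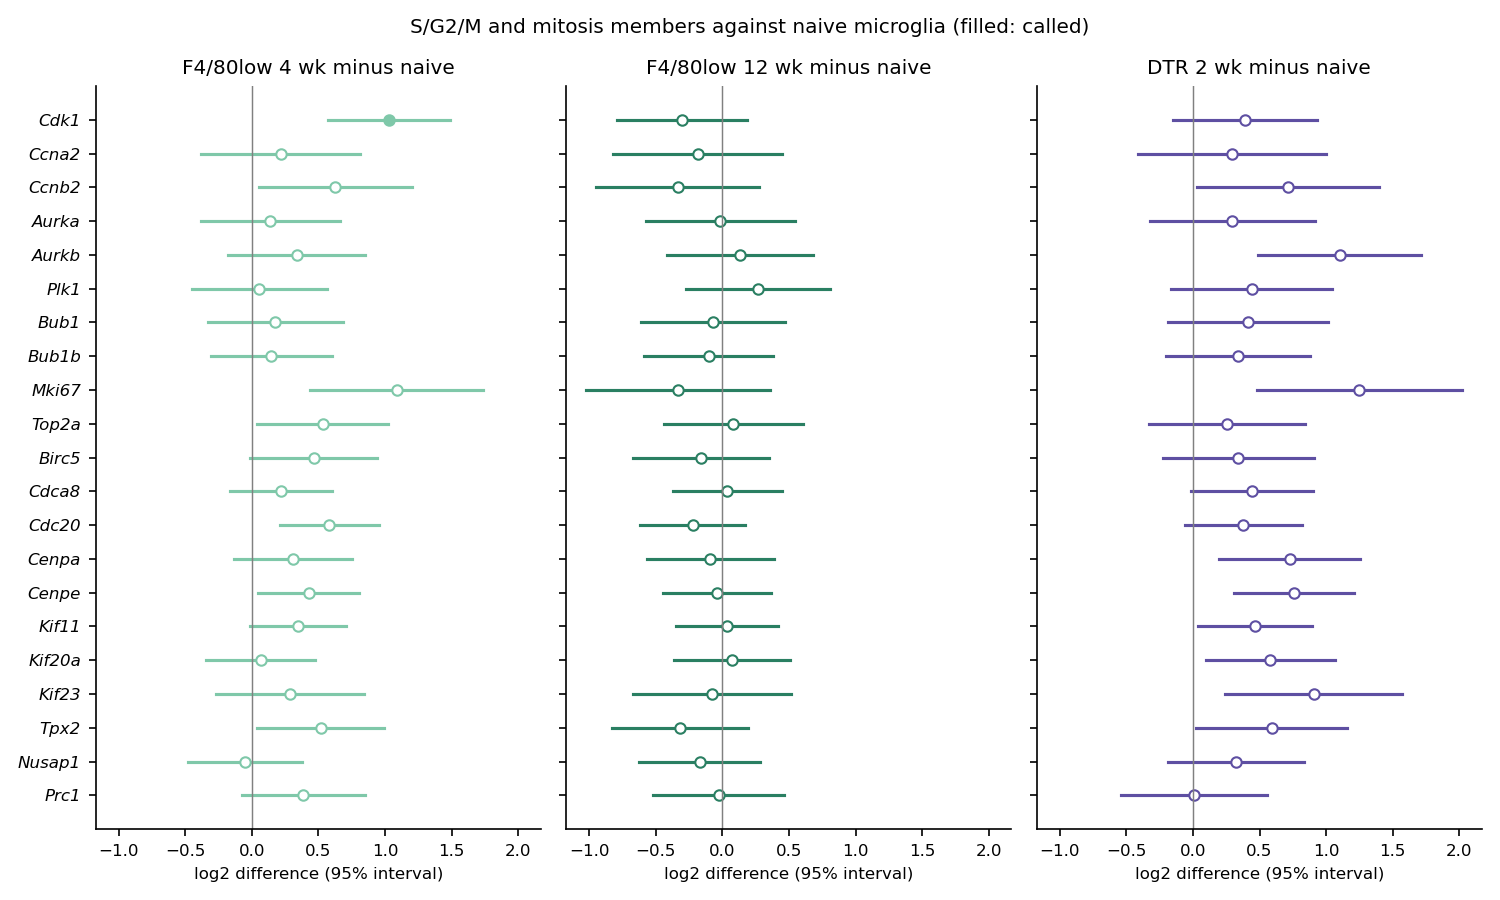
Fitted log2 difference from naive microglia (horizontal axis, points) with its 95% interval (lines) for the 21 measured S/G2/M and mitosis members in 4-week F4/80low cells, 12-week F4/80low cells and DTR microglia. Filled points passed the test across all transcripts, which Cdk1 at 4 weeks alone did. Points lie above zero for 20 of 21 genes at 4 weeks, 6 of 21 at 12 weeks and 21 of 21 in DTR microglia, with naive arrays 1 and 2 behind the 12-week and DTR differences and naive arrays 3, 4 and 5 behind those at 4 weeks.

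F4/80hi cells had Ccnd2 higher than naive microglia at both times, and it was the single member called of 38 in each comparison. This was 2.63% of members, against 1.53% of all transcripts higher and 1.01% lower at 4 weeks and 1.34% higher and 1.65% lower at 12 weeks, so that the number of calls was close to what all transcripts gave. The medians of the members were -0.11 at 4 weeks and -0.09 at 12 weeks, beside -0.03 and 0.00 for all transcripts. None of the late members was called, 9 of 21 lay above zero at each time, and the upper limit of the interval stayed under a 2-fold rise in 20 of 21, with Cenpa as the exception at both.

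Ccnd2 had 7.61 and 8.55 in F4/80hi cells at 4 weeks and 7.88, 8.73 and 8.09 at 12 weeks, against 5.13, 5.50, 5.22, 5.48 and 4.95 in naive microglia. Every F4/80hi array lay more than 4-fold above every naive array. The differences were 2.86 (SE 0.27, 7.28-fold, adjusted p = 1.18e-07) at 4 weeks and 2.92 (SE 0.25, 7.56-fold, adjusted p = 1.69e-08) at 12 weeks, and 0.05 (SE 0.34, adjusted p = 0.974) between 12 and 4 weeks. Between F4/80hi and F4/80low cells it differed by 2.00 at 12 weeks (SE 0.25, 4.01-fold, adjusted p = 5.04e-06), with 7.88 to 8.73 in F4/80hi arrays against 6.78, 5.88 and 6.02 in F4/80low arrays. At 4 weeks it differed by 1.28 (SE 0.28, adjusted p = 0.0335), with 7.61 and 8.55 against 6.95, 6.84 and 6.61. That last call was lost without F4/80hi array 2 (0.81, adjusted p = 0.737) and without F4/80low array 2 or 3. The change of this difference from 4 to 12 weeks was 0.73 (SE 0.37, adjusted p = 0.759).

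Cdkn1a was the other member called in this comparison. At 12 weeks it had 7.92, 8.49 and 8.62 in F4/80hi cells, against 10.22, 9.96 and 9.64 in F4/80low cells, without overlap. The difference was -1.59 (SE 0.25, adjusted p = 1.31e-04) and stayed between -1.75 and -1.39 with each array left out. Against naive microglia (8.62 to 10.24) F4/80hi cells differed by -0.59 (SE 0.26, adjusted p = 0.228). At 4 weeks Cdkn1a had 9.37 and 9.21 in F4/80hi cells and 9.56, 10.10 and 9.84 in F4/80low cells, a difference of -0.55 (SE 0.28, adjusted p = 0.772).

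In the direct comparison of F4/80hi with F4/80low cells, 1 member was called higher at 12 weeks (Ccnd2) and 1 lower (Cdkn1a), against 1.23% of all transcripts higher and 1.28% lower, and 1 was called higher at 4 weeks (Ccnd2), against 0.326% higher and 0.115% lower. The members' medians were 0.04 and -0.24, beside 0.02 and 0.01 for all transcripts. At 4 weeks 18 of 21 late members lay below zero with a median of -0.41, none of them called. Mki67 had 7.72 and 6.67 in F4/80hi cells, against 7.81, 8.62 and 8.0 in F4/80low cells (difference -0.95, SE 0.37, adjusted p = 0.476), and the F4/80hi array with the higher value, the first, was also the one with more neutrophil transcripts (2.51 above naive microglia, and 1.08 in the second) and more monocyte transcripts (2.25, and 0.37 in the second). The part of those transcripts in the value was not tested. At 12 weeks the late members had a median of 0.04.

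A few members of F4/80hi cells had an adjusted p under 0.05 with less than a 2-fold change. Cenpa, the histone variant of centromeres, had 7.10 and 7.72 at 4 weeks and 7.28, 7.01 and 7.84 at 12 weeks, all above the naive arrays (6.27 to 6.74), with differences of 0.85 (SE 0.24, adjusted p = 0.0486) and 0.89 (SE 0.23, adjusted p = 0.0161). It was the mitosis member that followed the mean of its role least over the 18 brain arrays (r = 0.00). E2f1, which switches on replication genes, had 6.33 and 6.57 in F4/80hi cells at 4 weeks and 5.42 to 6.28 in naive microglia (0.74, SE 0.21, adjusted p = 0.0431). At 12 weeks the differences of 2 members were negative. Cdk1 had 5.44, 5.42 and 5.34 in F4/80hi cells, under every naive array (5.72 to 6.79), and differed by -0.81 (SE 0.24, adjusted p = 0.0371), and Mcm2 had 6.25, 6.26 and 6.16 against 6.62 to 7.64 and differed by -0.77 (SE 0.20, adjusted p = 0.0168).

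Between 12 and 4 weeks no member was called in F4/80hi cells, where 0.0124% of all transcripts were higher and 0.158% lower, and 3 members (7.89%) were lower and none higher at an unadjusted p under 0.05, beside 4.62% of all transcripts lower and 4.70% higher. The members' median was -0.05 and that of all transcripts 0.01. The largest difference was that of Cdk1, with 5.44, 5.42 and 5.34 at 12 weeks against 6.54 and 6.48 at 4 weeks (-1.21, SE 0.32, adjusted p = 0.166). For the change of the F4/80hi minus F4/80low difference between the time points, the smallest adjusted p of any member was 0.546.

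**Figure D3:**
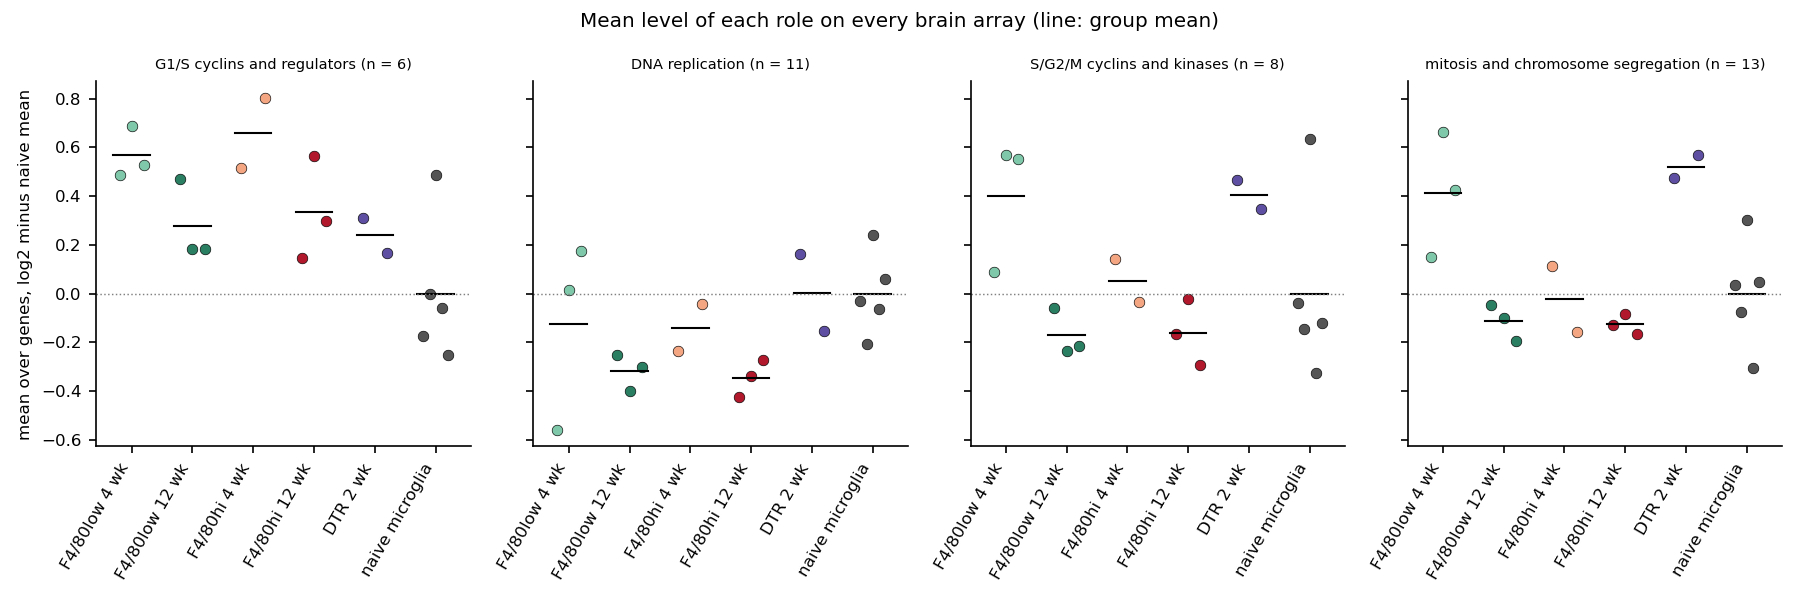
Mean over the measured genes of each role, as log2 signal minus the mean of naive microglia (vertical axis), on each brain array (points), with group means (lines). In the mitosis panel the 2 DTR arrays lie at 0.47 and 0.57 and the F4/80low arrays at 4 weeks at 0.15 to 0.66, while those at 12 weeks lie at -0.20 to -0.05, and in the replication panel the F4/80low arrays at 4 weeks lie at -0.56, 0.01 and 0.18.

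The other populations show the scale on which these genes can move. In Ly6Chi monocytes 35 of 38 members were higher than in naive microglia and 1 lower, 92.1% and 2.63% of members, against 9.15% and 5.48% of all transcripts, with a median of 3.87. All 8 S/G2/M and all 13 mitosis members were called higher. Mki67 had 11.96, 11.78, 11.90, 12.35 and 12.17 in monocytes, against 6.76, 6.59, 7.86, 6.15 and 7.16 in naive microglia, a difference of 5.20 (SE 0.26, 36.8-fold, adjusted p = 2.59e-14). Aurkb (5.32) and Ccnb2 (5.31) had the largest differences. Cdk1 differed by 4.25 (SE 0.18, adjusted p = 1.54e-15). The F4/80low cells at 4 weeks, at 1.03 for Cdk1 and 1.09 for Mki67 against naive microglia, stood below the monocytes on every array in both genes.

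The exceptions in monocytes were 3 genes. Ccnd1, cyclin D1, had 6.63, 6.75, 6.60, 7.42 and 6.81 in monocytes, against 9.33, 9.72, 10.42, 9.86 and 9.67 in naive microglia, and was lower by 2.87 on the log2 scale (-2.87, SE 0.17, adjusted p = 5.18e-13). Cdkn1a and Mcm7 were higher by less than 2-fold (0.82 and 0.76). The monocyte arrays also carried genes of granulocyte precursors, with 11.72 to 12.13 for Elane and 10.48 to 10.82 for Mpo, against 4.63 to 5.17 and 4.60 to 4.86 in naive microglia, and the part of such cells in the monocytes' levels was not tested.

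F4/80hi cells carried far less of these transcripts than monocytes. At 4 weeks 34 of 38 members were lower than in monocytes and 1 higher (89.5% and 2.63%, against 7.81% and 4.66% of all transcripts), with a median of -4.06. At 12 weeks 35 were lower and 1 higher (92.1% and 2.63%, against 9.61% and 4.64%), with a median of -4.07. These comparisons share the F4/80hi arrays with those against naive microglia. Mki67 differed by -5.07 (SE 0.37) at 4 weeks and -5.84 (SE 0.31) at 12 weeks. The member higher than in monocytes was Ccnd1, with 9.96 and 10.56 at 4 weeks and 9.34, 9.77 and 9.50 at 12 weeks against 6.60 to 7.42 in monocytes (differences 3.15, SE 0.24, and 2.87, SE 0.20). Ccnd2, at 7.44 to 7.92 in monocytes, was not called in either (0.45, adjusted p = 0.305, and 0.51, adjusted p = 0.113).

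Both tissue macrophages carried late cell cycle transcripts above naive microglia, in batch 2 with 3 of the naive arrays. In red pulp macrophages 29 members were higher and 1 lower (76.3% and 2.63%, against 8.51% and 7.24% of all transcripts, median 1.64), and in intestinal macrophages 32 were higher and none lower (84.2%, against 7.09% higher and 5.95% lower, median 1.79). Ccnd2 had 12.12 and 11.90 in red pulp and 10.68 and 10.85 in intestinal macrophages, against 4.95 to 5.50 in naive microglia, the largest difference of any member in both (6.79, SE 0.27, adjusted p = 1.51e-15, and 5.55, SE 0.27, adjusted p = 3.99e-14). Mki67 had 9.51 and 9.01 in red pulp and 10.40 and 10.60 in intestinal macrophages, above every brain array (5.64 to 8.62). Cdkn1a went opposite ways, with 8.33 and 8.36 in red pulp macrophages (-1.09, SE 0.27, adjusted p = 0.00274) and 11.85 and 11.95 in intestinal macrophages (2.47, SE 0.27, adjusted p = 1.04e-07), against 8.62 to 10.24 in naive microglia. Without naive array 3 the difference in red pulp macrophages was -0.80 and was not called. The mean of the erythroid markers lay 2.83 above naive microglia in red pulp macrophages and that of the B cell markers 2.37 above in intestinal macrophages. The mean of the 8 monocyte genes lay 2.60 above naive microglia in intestinal macrophages, where Ly6c2, Ccr2, Fn1, F13a1 and Plac8 were called higher, and 0.71 above in red pulp macrophages, where Vcan, Fn1 and Plac8 were called higher and Ccr2 lower. The part of such cells in the members' levels was not tested.

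**Figure D4:**
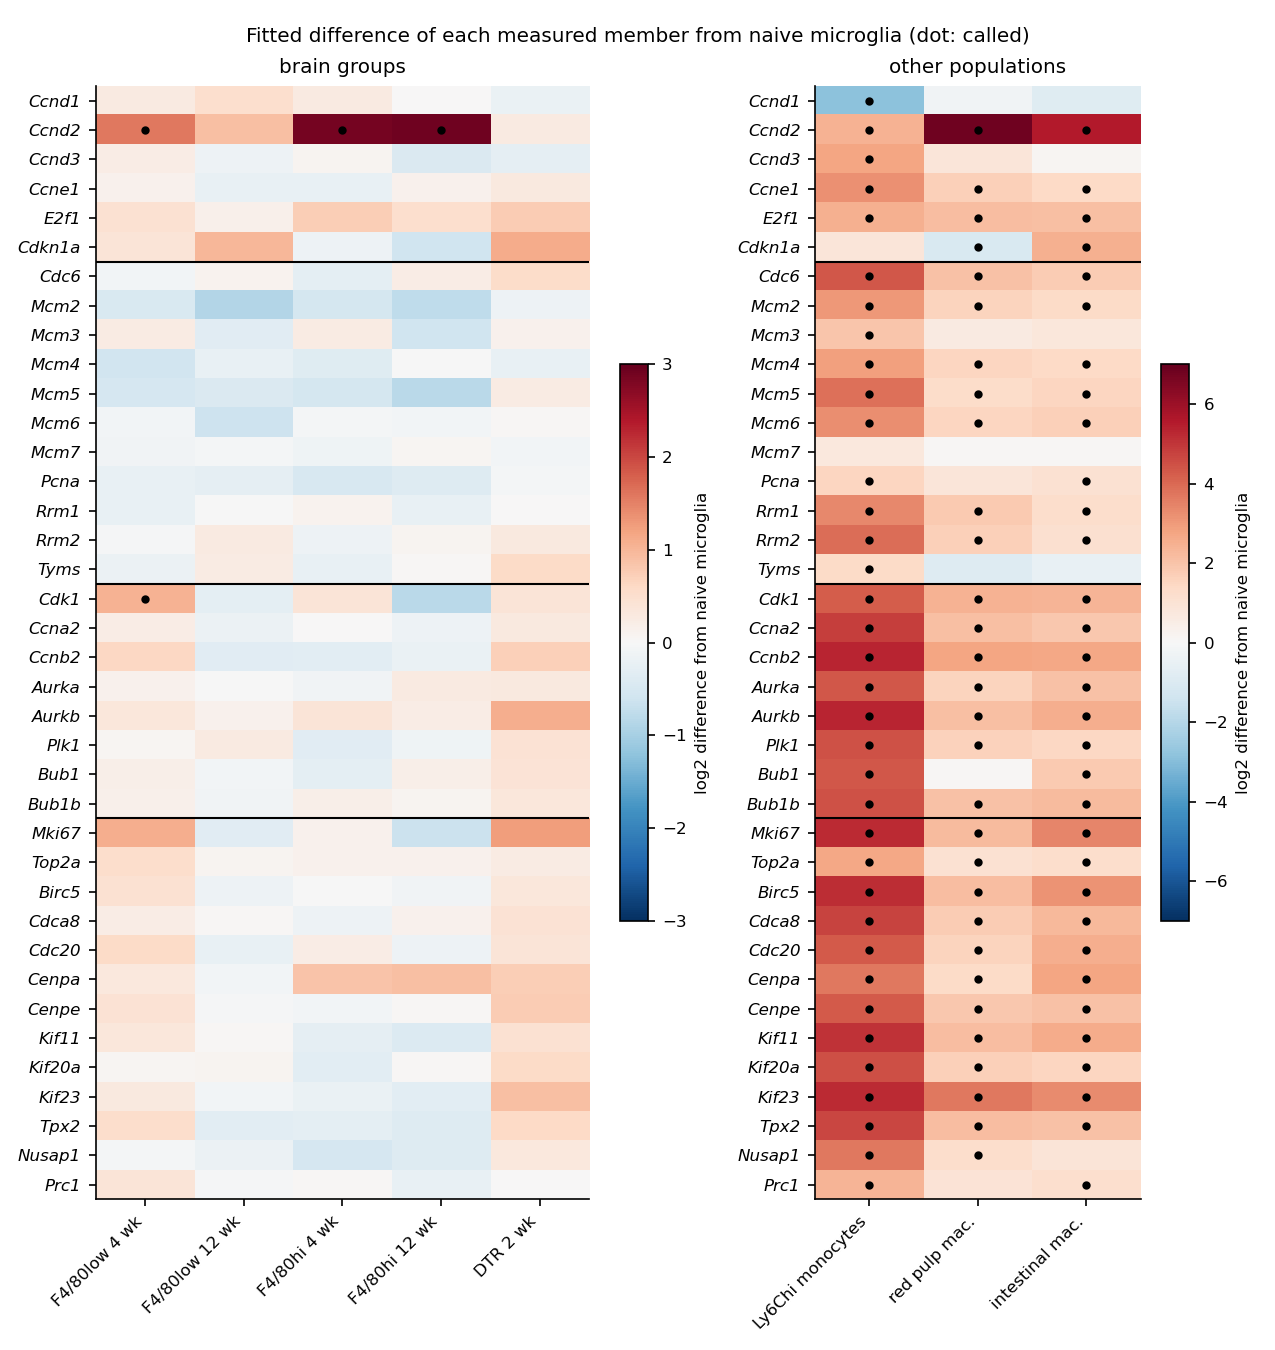
Fitted log2 difference from naive microglia (colour, with separate scales for the brain groups and the other populations) of the 38 measured members (rows, roles parted by lines) in 8 groups (columns). Dots mark genes called, which in the brain groups are Ccnd2 in 3 columns and Cdk1 in 1, and in monocytes 36 of 38 rows.

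Beyond the members, further genes of the same pathways were read from lists. In brain groups few were called. Of 33 measured replication genes, Tk1, the thymidine kinase that salvages thymidine for DNA synthesis, exceeded its naive level in the 4-week F4/80low cells (8.30, 8.20 and 8.12, difference 1.65, SE 0.28, adjusted p = 0.00125), in 4-week F4/80hi cells (8.73 and 8.77, 2.19, SE 0.32) and in those at 12 weeks (8.47, 8.45 and 8.22, 1.80, SE 0.30), and in DTR microglia (8.70 and 8.21, 1.88, SE 0.34, adjusted p = 0.00308). Naive microglia had 6.68, 6.49, 7.81, 5.90 and 5.95, so that all these arrays lay above all naive arrays. In F4/80low cells at 12 weeks Tk1 had 7.13, 6.86 and 6.69 and was not called. Hells, a chromatin remodeller of the SNF2 family, was called higher in 12-week F4/80hi cells, both against naive microglia (1.34, SE 0.27, adjusted p = 0.00187) and against F4/80low cells (1.28, SE 0.27, adjusted p = 0.00315). No other gene of this list was called against naive microglia in a brain group, and its medians lay between -0.11 and 0.06.

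Of 52 further mitosis genes none was called in F4/80low cells against naive microglia at either time or in DTR microglia. In DTR microglia 47 of the 52 lay above zero with a median of 0.39, and in F4/80low cells at 4 weeks 40 of 52 with a median of 0.17, at 12 weeks 28 with a median of 0.02. Anln, anillin of the cleavage furrow, was higher in the 4-week F4/80hi cells (5.94 and 6.26, against 4.48 to 5.47 in naive microglia, difference 1.03, SE 0.26, adjusted p = 0.0156). Ncaph, a condensin subunit, was lower in the 12-week F4/80hi cells (5.46, 5.81 and 5.47, against 7.44 to 7.87 in naive microglia, difference -1.99, SE 0.23, adjusted p = 1.20e-06). In monocytes 51 of the 52 mitosis genes and 32 of the 33 replication genes were called higher.

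Of 13 CDK inhibitors and G1 kinases, Cdkn2a, which encodes the inhibitors p16 and p19Arf, was called in F4/80low cells at 12 weeks alone among the groups set against naive microglia, with 7.29, 6.82 and 6.61 against 5.88, 5.73, 5.76, 6.01 and 5.32 (difference 1.11, SE 0.22, adjusted p = 0.0292). At 4 weeks F4/80low cells had 6.55, 6.73 and 6.72, also above all naive arrays. Of 13 measured p53 targets and arrest genes, Gadd45b was lower in F4/80hi cells at 12 weeks than in naive microglia (-1.29, SE 0.38, adjusted p = 0.0402) and higher in DTR microglia than in F4/80low cells at 12 weeks (2.00, SE 0.42, adjusted p = 0.0198). None of 18 transcription factors and pocket proteins and none of 13 genes of homologous recombination and the replication checkpoint was called in any of the 10 comparisons between brain groups.

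Over the 18 brain arrays, the members that ran closest to the mean of the mitosis role were Ccnb2 (Pearson r = 0.88), which is not part of that mean, and Tpx2 (0.88), Kif23 (0.87) and Mki67 (0.84), which are. Ccnd2 (r = -0.24) and some replication genes (Mcm4 -0.16, Pcna 0.12) did not follow it. Among 22722 other transcripts with 1 symbol, those with the highest r were Hmmr (0.86), Cdca2 (0.86), Kif2c (0.86), Stag3 (0.85), Slc43a3 (0.84), Kif15 (0.83), Txnrd1 (0.83), Prr11 (0.82), Cdc14a (0.82) and Nhlrc3 (0.82). The correlations are descriptive, since arrays of a group share its level.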

How the data were processed

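The deposited table holds log2 signals of 27 Affymetrix Mouse Gene 2.1 ST arrays, which the authors processed in Partek according to the submitters' processing notes. Its version, summary and normalization are not given in the sources used here. A batch adjustment was already in the values as deposited, since the difference between batches in naive microglia equals that in monocytes in every transcript (largest gap 1.33e-04). It left the difference between batches the same in both groups and did not remove it. Of 41345 rows, 2145 are blank and 6955 hold 0 on every array, and 32245 were tested.

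Group means and a batch term were fitted to the 27 arrays together with limma 3.58.1 under R 4.3.3 (17 residual and 6.23 prior degrees of freedom, prior SD 0.229). Groups of 2 arrays thus borrow the spread of the others. P-values were adjusted by Benjamini-Hochberg within each of 15 comparisons. Genes were called at an adjusted p under 0.05 with a change of more than 2-fold, the limits the study itself uses. With all arrays in the fit, a group held in 1 batch is thereby set against the naive arrays of that batch, 2 in batch 1 and 3 in batch 2. This follows from the equal difference between batches in naive microglia and in monocytes. Intervals are 95% intervals of a single gene, and the number of arrays limits the precision.

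The members and lists were chosen with earlier results of these data known. Every member is accounted for. Values on each array are given for members called between brain groups and for 1 to 3 members of each role with the largest change, and of other lists up to 4 called genes are named, with the 10 transcripts closest to the mean of the mitosis members. Other genes named for their values were chosen after these were seen. The fit recovered known changes on simulated data. Arrays of a group are separate pools or, among naive microglia and monocytes, in part technical repeats, so p-values measure the spread between these arrays. Promoter windows are those of RefSeq (GRCm38.p6), read with Python 3.11.15. The alternatives were no batch term, other scalings, a filter on dim transcripts, a variance trend, subsets of arrays, the mean over a gene's rows, each array left out and a replicate block.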

Additional observations from a re-analysis of the deposited data

Results flagged for a closer look

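Among 76 sets of 5 naive or 5 monocyte arrays, 1 for each member, 10 held a value far from the other 4, where chance alone gives about 1 in 20. In naive array 3 these were Mcm3 at 9.45 (nearest other array 8.71), Mcm4 at 7.73 (7.27), Ccnb2 at 6.61 (5.80), Aurkb at 7.35 (6.08) and Kif20a at 5.70 (5.01), all high. In naive array 4 they were Cdc6 at 5.30 (4.90), high, and Bub1 at 4.34 (4.77), low. In monocytes they were Ccnd1 at 7.42 (6.81) and Ccna2 at 10.69 (10.49) on array 4, both high, and Cdc20 at 10.31 (10.41) on array 1, low. Of the 10 values, 5 lie on naive array 3. For this reason the comparisons of brain groups with naive microglia are also given without it where a call changed. That choice was made after seeing the data.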

How the results depend on the processing

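Under the alternatives, 186 of 223 counts of called members stayed within 1.5 times and 37 did not. Of 2669 values of called members none changed direction and 41 lost the call. Most of these values come from monocytes and tissue macrophages. With each array left out, Cdk1 in 4-week F4/80low cells lost its call in 5 of 8 fits. Ccnd2 between 4-week F4/80hi and F4/80low cells lost it in 3 of 5, and Mki67 in DTR against F4/80low cells in 4 of 5. The other calls between brain groups were kept each time. With no batch term, the number of members called was 1 (Mcm2) in F4/80low cells at 12 weeks against naive microglia, 2 (Ccnd2, Mcm5) in F4/80hi cells at 12 weeks, 3 for F4/80low cells and 1 (Cdk1) for F4/80hi cells at 12 against 4 weeks, and 0 for DTR microglia against F4/80low cells. That last count was also 0 with quantile normalization, with arrays centred on their median and with brain arrays alone, and quantile normalization gave 2 (Ccnd2, Cenpa) for F4/80hi cells at 12 weeks. With dim transcripts left out, DTR microglia against naive microglia had 1 (Cdkn1a), and with batch 1 alone 1 (Aurkb). F4/80low cells at 4 weeks had 1 (Ccnd2) with brain arrays or batch 2 alone, and the 4-week comparison of F4/80hi with F4/80low cells had 0 in both. With F4/80low array 3 alone at 4 weeks, chosen after seeing the data, both of these comparisons had 0, the lone array being assumed to vary like the other groups. The cause was not tested.

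The replicate block gave 0 members between the 4-week F4/80hi and F4/80low cells (Ccnd2 1.18, adjusted p = 0.126) and changed no call at 12 weeks, where 2 members were called. Same-numbered F4/80hi and F4/80low arrays, after group means were removed, correlated at -0.08, -0.10 and -0.06 at 12 weeks and at 0.28 and -9.1e-04 at 4 weeks. The numbers were not used as pairs. Among differently numbered arrays at 4 weeks, F4/80hi array 2 correlated at 0.29 with F4/80low array 3 and at -0.28 with F4/80low array 1. F4/80hi array 1 correlated at -0.29 with F4/80low array 3 and at 9.1e-04 with F4/80low array 2. Shared pools under other numbers were not tested.

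With each array left out in turn, the counts against naive microglia were 1 to 3 in F4/80low cells at 4 weeks and 0 to 1 at 12 weeks, 1 to 2 in F4/80hi cells at either time, 0 to 3 in DTR microglia, 36 to 37 in monocytes, 29 to 31 in red pulp macrophages and 28 to 33 in intestinal macrophages. Between F4/80hi and F4/80low cells they were 0 to 2 at 4 weeks and 2 to 3 at 12 weeks, 0 to 1 for F4/80low cells at 12 against 4 weeks, 0 to 0 for F4/80hi cells, 0 to 1 for DTR against F4/80low cells, and 35 to 36 and 36 to 36 for F4/80hi cells at 4 and 12 weeks against monocytes. Counts of 1 or 2 members rest on groups of 2 or 3 arrays, and genes near a signal of 5 leave no room for a fall.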
